A study of Mus musculus with 70 samples.

Results

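Promoter hub bins were 10-kb bins of the mouse genome in which a protein-coding gene starts transcription (a TSS) and that had 30 or more interactions in at least 1 of 12 tissue-stages. There were 424 such bins among 35186 autosomal bins with a protein-coding TSS (1.21%), and among 24666 of those bins with any interaction (1.72%). The hub bins held TSSs of 414 genes. A single gene was annotated in 403 of them, and 2 or more genes shared the other 21. Some hub bins are not independent of each other, because 70 lay directly beside another hub bin and 30 genes had TSSs in 2 or more hub bins. A further 135 bins without a protein-coding TSS also reached 30 interactions and were not included.

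The interactions came from H3K4me3 PLAC-seq, which ligates DNA that lies close together in the nucleus and then pulls down fragments that carry histone H3 lysine 4 trimethylation. Tissue was taken from C57BL/6N mice, and the labels name no genetic change or treatment. At E12.5 the neural tissues were forebrain (FB), midbrain (MB), hindbrain (HB) and neural tube (NT). The other tissues at E12.5 were limb (LM), liver (LV) and craniofacial prominence (CF). FB was followed on each embryonic day from E13.5 to E16.5 and at birth (P0). Each of the 12 tissue-stages had 2 biological replicates. Each tissue is a mixture of cell types, so more cells with an interaction and a more frequent interaction per cell cannot be told apart. One pooled list per tissue-stage, made from the same number of read pairs, gave the number of interactions that chose the hubs, and 24 lists gave the single libraries. The liver list held 21945 interactions, and the other 11 lists held 51264 to 79677.

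H3K4me3 marks the start of active and poised genes. Promoters contact distal regulatory elements through looping of the chromatin fibre, in which cohesin extrudes loops until it meets the DNA-binding protein CTCF. Convergent CTCF motifs commonly mark both ends of such a loop. Developmental transcription factor genes often lie in gene-poor regions where many enhancers are spread over long distances.

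CTCF binding was measured by ChIP-seq in the same 12 tissue-stages, with 1 library at P0, technical replicates in LV and E14.5 FB, and biological replicates elsewhere. The sites printed here are the motif peaks of highest fold enrichment in the hub bins of 5 genes, shown because their partners lay almost wholly on one side. They were chosen after their values were seen. Each is 29 bases of mm10/GRCm38, written 5′ to 3′ on the strand of the motif, with the 19-base motif match in capitals.
Kif26b (chr1:178527269-178527297, plus strand): aaattTCACCAACAGAGGGCGCTCcgagc
Mn1 (chr5:111414377-111414405, plus strand): ccgttTGAGCACTAGGGGGCAATGtgtct
Ebf3 (chr7:137319120-137319148, minus strand): cagtaGGAGCGGAAGGGGCCACCAgtcct
Sox6 (chr7:116033094-116033122, minus strand): ctttgTACCCACAAGAGGGCAACAtcttg
Jarid2 (chr13:44733573-44733601, plus strand): gcgggCGGCCTGTAGGGGGCAGACtccgg

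A forward motif here is one on the plus strand. All 5 sites were bound in all 12 CTCF lists, and in some lists their bins also held other motif peaks, up to 2 or 3 in all. Motifs of the bin lay only on the strand of the site in 10 lists at Kif26b and Jarid2, 7 at Mn1, 9 at Ebf3 and 11 at Sox6. In the remaining lists the bin also held a motif on the opposite strand. Fold enrichment over input ranged from 21.7 to 39.8 over the lists at the Sox6 site and from 8.43 to 31.2 at the Mn1 site. The Kif26b hub, at a kinesin-family gene, had all 77 of its NT partners at higher coordinates, and the Mn1 hub, at a transcriptional coregulator gene, had all 72 of its E12.5 FB partners there. The Ebf3 hub had all 80 of its HB partners at lower coordinates, and the Sox6 hub had all 79 of its E16.5 FB partners there. The Jarid2 site had the opposite relation. Its motif was forward, and 78 of the 83 partners in LM lay at lower coordinates. The Sox6 hub bin also holds a TSS of 1110004F10Rik, and the 2 genes cannot be separated at this bin size.

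The largest number of interactions over the 12 tissue-stages had a median of 42 over the hubs, and it chose them, so the values that follow are a description. It reached 50 or more at 145 hubs and 80 or more at 17. The other promoter bins with any interaction had a median largest number of 2. At the threshold itself, 26 bins had a largest number of exactly 30 (for example Astn2, Bach2 and Bnip2) and 27 had exactly 29 (for example Aatf and B3gat2), so bins on either side of the threshold differed little.

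The highest number was at Sox11, which encodes a SoxC transcription factor of neural and mesenchymal progenitors (hub bin chr12:27340001-27350000). Sox11 had 114 interactions in NT, 113 in LM, 88 in HB, 87 in MB, 85 in FB and 75 in CF at E12.5. In LV it had 2. The later FB stages had 90, 82, 99, 106 and 95 from E13.5 to P0. Liver was the lowest of the 12 tissue-stages for this hub.

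Rnd3 had 112 interactions in LM, 111 in NT and 14 in LV. Tshz3, a zinc finger homeobox gene, had 104 in NT but 38 in MB. Tenm4, a teneurin cell adhesion gene, had 96 in FB at E16.5 and 25 to 60 in the other tissue-stages with any interaction. Sox4, the SoxC relative of Sox11, ranged from 62 to 92 outside the liver and had 10 in LV. These hubs had the largest numbers of all but differed in how evenly the number was spread over tissues.

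Cdh13, an atypical cadherin gene, had 10 interactions in LM and 89 in FB at E16.5. Wnt5a, a ligand of noncanonical Wnt signalling that directs limb outgrowth, had 86 in LM and 60 in CF against 20 to 38 in the neural tissue-stages. Ajap1, a gene of cell junctions, had the opposite pattern, with 15 in LM, 15 in CF and 85 in FB at P0. Irx3 and Irx5, homeobox genes of one cluster, each had 80 in MB. Irx3 then had 20 in LM and Irx5 43. The remaining genes among the 20 highest hubs were Plpp3, Jarid2, Cadm1, Tgfb2, Jun, Ebf3, Id4, Sox6, Plxna4 and Zmiz1, whose largest numbers lay between 78 and 85.

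**Figure D1:**
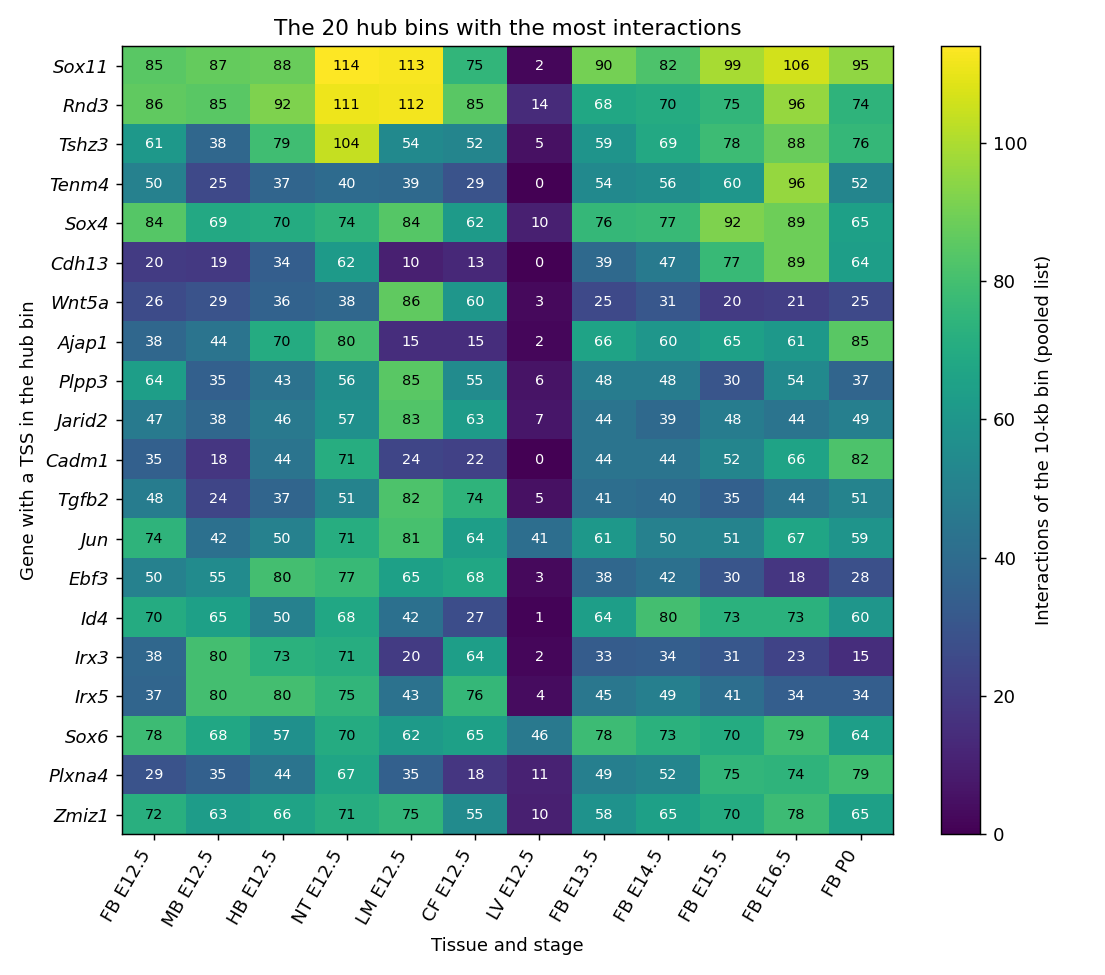
Number of interactions of the 20 hub bins with the largest numbers (rows, by gene) in the pooled list of each tissue and stage (columns), coloured on a scale from 0. The liver column is the lowest for each of the 20 hubs, with 46 at Sox6 and 41 at Jun as its highest values, and Sox11 has 114 in NT.

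NT had 236 hub bins at 30 or more, P0 FB had 232 and E16.5 FB 205. At E12.5 the other neural tissues had 138 (FB), 135 (MB) and 177 (HB), and LM had 186 and CF 160. LV had 11. A total of 107 hubs reached 30 in 1 tissue-stage, 153 reached it in 6 or more, and 4 reached it in all 12. The median number over the 424 hubs was 2 in LV and between 21 and 32 in the other tissue-stages, and 130 hubs had no interaction in LV. The liver list was also the shortest of the 12.

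**Figure D2:**
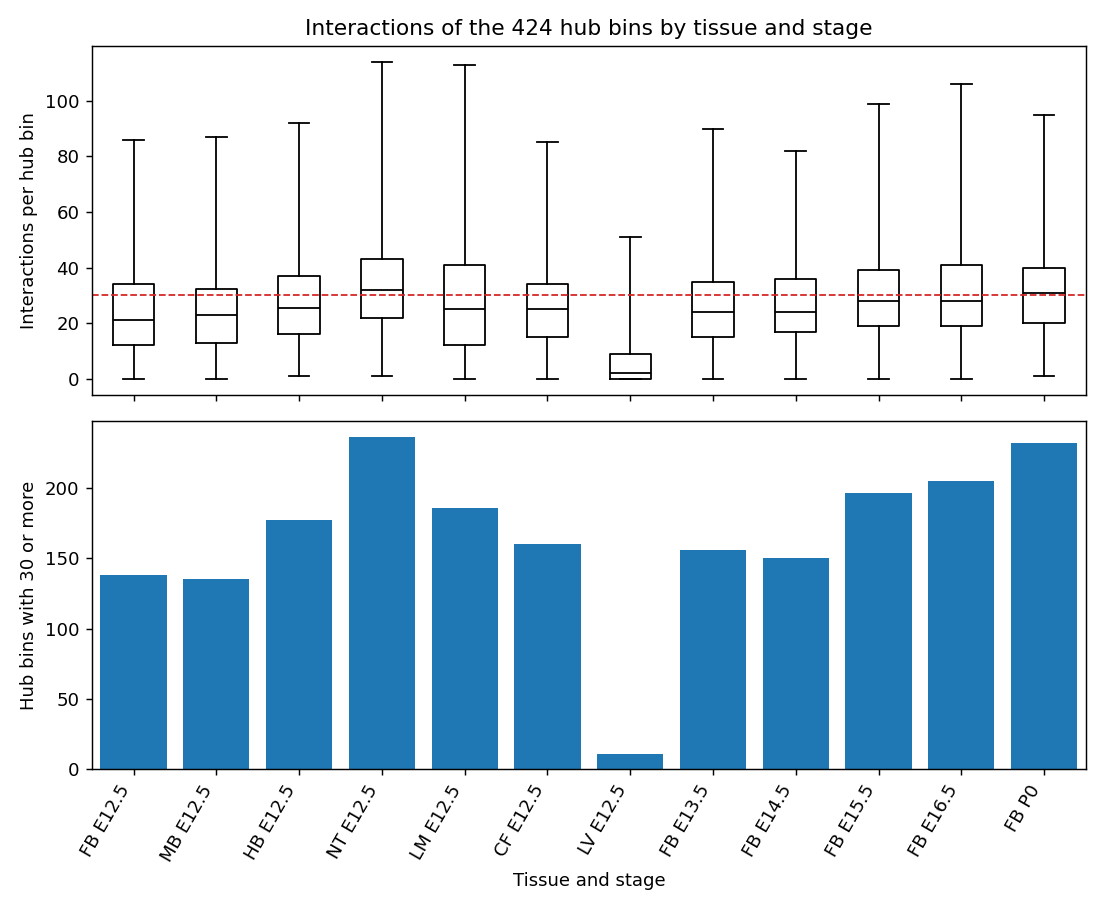
Upper panel, interactions per hub bin in each tissue and stage for the 424 hubs (line, median; box, quartiles; whiskers, lowest and highest), with the threshold of 30 dashed. Lower panel, hub bins at 30 or more. Liver has 11 hub bins at 30 or more and NT 236.

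The 4 hubs at 30 or more in every tissue-stage were those of Jun, Sox6, Zfp36l1 and Gadd45g. Jun encodes an AP-1 subunit, Zfp36l1 an mRNA-decay factor and Gadd45g a stress-response protein. Gadd45g was the most even of them, with 34 to 43 interactions over the 12 tissue-stages. The 11 hub bins at 30 or more in LV also included Myc (51), Tsc22d1 (43), Runx1 (41), Cited2 (31), the bin shared by Bcl6 and Gm37419 (31) and both Klf3 bins (34 and 33). Myc encodes a growth-promoting transcription factor, Runx1 the factor needed for the first blood stem cells, and Klf3 a Krüppel-like repressor expressed in erythroid cells. Myc had the largest number of any hub in LV.

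The 2 adjacent Klf3 bins differed. The first had 21 to 34 interactions in all 12 tissue-stages. The second had 33 in LV, 24 in CF, 18 in LM, 18 in MB and 20 in E13.5 FB, and between 1 and 3 in the other 7. MAPS considers only bin pairs with an H3K4me3 peak at one or both ends, and those peaks were not used here, so their part in such differences was not tested.

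Markers of the tissues were looked up in the same lists. Hoxa7, of the trunk, had 53 in NT and 26 at most elsewhere. Hoxd13, of the distal limb, had 51 in LM and 45 at most elsewhere. Dlx5, of the facial arches, had 47 in CF, and Alx4 had 19 there. The hepatocyte genes Alb, Afp, Hnf4a and Rbp4 had 0 to 2 interactions in every tissue-stage and the blood genes Tal1, Klf1 and Slc4a1 had 0 to 9, so the liver label could not be checked at these genes.

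The genes in hub bins were looked at by role, in lists drawn from textbook knowledge. The lists were written with earlier results of these data known, so their shares are not independent of the data. They also overlap, with Bcl11a in both the neural and the hepatocyte and blood list. Of all 20780 autosomal protein-coding genes by name, 414 had a hub bin (1.99%). Of 51 neural and forebrain transcription factors, 28 did. The highest after Sox11, Sox4 and Id4 were Meis2 (71 in NT) and Emx2 (68 in E12.5 FB). Emx2, which patterns the cortex, had 41 to 68 in the FB stages, 48 in CF, 40 in MB, 32 in NT and 30 in HB. It had 26 in LM and 3 in LV. Myt1l, a neuronal identity factor, had 0 in LM, CF and LV, 10 in FB at E12.5 and 66 at E15.5. It was chosen after its values were seen.

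Of 42 limb and face patterning transcription factors, 25 had a hub bin, led by Sox6 (79 in E16.5 FB), Zfhx3 (73 in HB), Meis1 (71 in NT), Tbx3 (70 in CF) and Foxc1 (62 in CF). The largest number was in LM or CF for 19 of the 25 and in a neural tissue-stage for 6. Of 39 Hox genes, 22 did, and the bins of Hoxd9 and Hoxd10 (shared, 63), Hoxa7 and Hoxa9 (shared, 53), and Hoxd3 and Hoxd4 (shared, 53) had their largest numbers in NT. Hox genes order the body axis and lie so close together that one bin often holds several. Of 59 signalling genes, 21 had a hub bin, with Wnt5a (86), Tgfb2 (82), Pdgfra (76), Tcf7l2 (67) and Gli3 (61) all highest in LM. Of 54 neuronal adhesion and synapse genes, 19 did, with Tenm4 (96 in E16.5 FB), Plxna4 (79 in P0 FB), Cdh11 (76 in LM), Epha4 (76 in LM) and Ncam1 (66 in P0 FB) first. The largest number was in LM for 7 of the 19 and in a neural tissue-stage for 12. The split between LM or CF and neural tissue-stages was 5 and 23 for the neural and forebrain transcription factors. It was 3 and 19 for the Hox genes and 14 and 7 for the signalling genes. Most of the 12 tissue-stages were neural, and the split over all hubs is not given here, so these splits are a description.

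Of 36 cell cycle, growth and chromatin genes, 9 had a hub bin, with Jarid2, a Polycomb partner (83), Myc (63), Sall1 (56), Mycn (47) and Hmga2 (44) first. Of 39 hepatocyte and blood genes, the 3 in hub bins were Runx1 (67 in CF), Bcl11a (52 in E12.5 FB) and Onecut1 (46 in MB), each with its largest number outside the liver. None of 28 housekeeping genes had a hub bin. The members were chosen by the number of interactions, so these counts describe the hubs and were not tested.

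Partners were next described in the tissue-stage where each hub had its largest number. Partner bins often formed uninterrupted stretches. The partners of a hub fell into a median of 12 runs of adjacent bins (1 to 31), and the number of partners per run had a median of 3.85. The longest run of a hub had a median of 12 bins and reached 53 bins at Plpp3. Plpp3 encodes a lipid phosphatase, and its 85 partners in LM formed 7 runs, all on one side. All 42 partners of Kif26a in E14.5 FB and all 33 of Dscaml1 in E16.5 FB formed a single run. At the other end, Zfp608 had 31 runs and one of the Zfhx3 bins 29. When a run was counted as 1 partner, 2 bins reached 30 in any tissue-stage in place of 424.

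The farthest partners on either side spanned a median of 1000 kb (410 to 1980 kb), where the calls could reach 1000 kb on each side. The median distance of a partner had a median over hubs of 450 kb. It was 140 kb at Smad7, 150 kb at Wnt11 and 160 kb at Prdm16, and it was 830 kb at Cadm3, 760 kb at Myc and 760 kb at Neto2. At 149 hubs all partners lay on one side, and the larger side held a median of 93.3%. Sox11 had partners on both sides, with 62 partners at lower and 52 at higher coordinates in NT. Myc, whose long gene-poor flank is known for distant enhancers, had 12 and 51 in E16.5 FB.

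**Figure D3:**
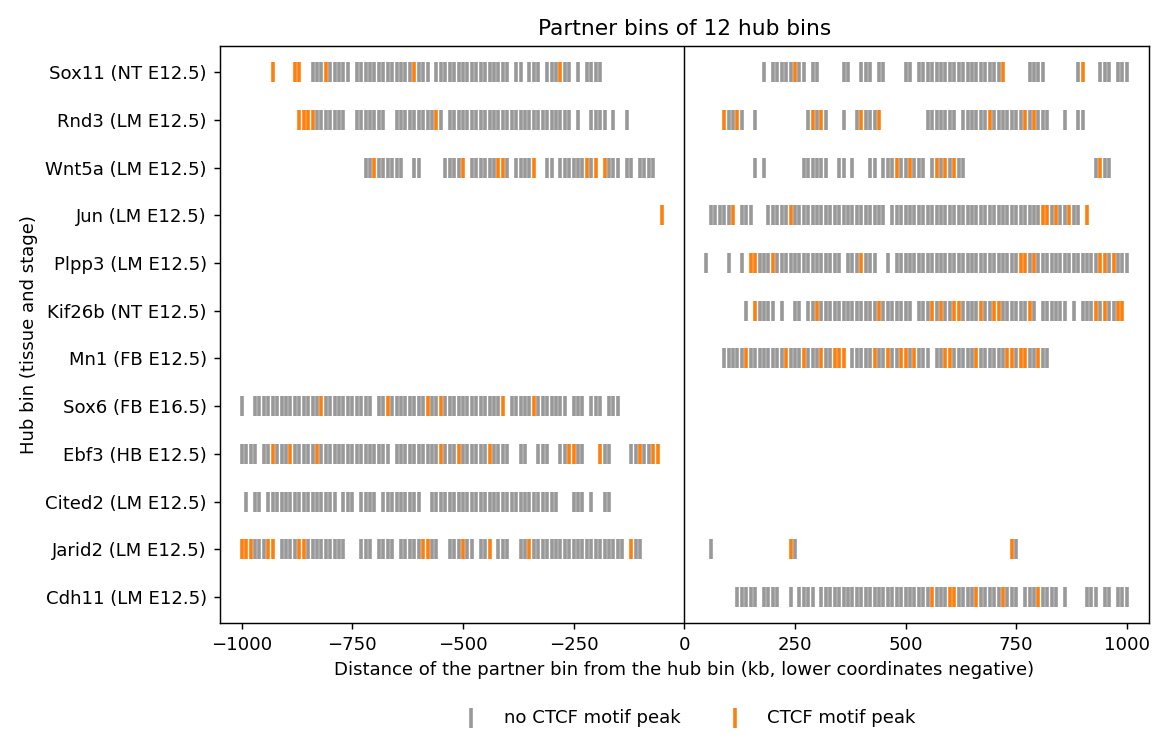
Position of every partner bin of 12 hub bins, as distance from the hub bin in kb (x axis, limited to 1000 kb on each side), in the tissue and stage of the hub's largest number (rows). Orange marks are partner bins with a CTCF motif peak and grey marks those without. Many partners lie in uninterrupted stretches, and they lie on one side only at Kif26b, Mn1, Plpp3, Sox6, Ebf3, Cited2 and Cdh11. The 12 hubs are examples and do not give the share of such hubs, which was 149 of 424.

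The interactions with a hub bin had a median distance of 420 to 460 kb in the 11 tissue-stages other than liver, and those of other promoter bins 220 to 260 kb. In liver the values were 310 and 160 kb. Few partners were promoters. A median of 5.67% of the partners of a hub held a protein-coding TSS, 83 hubs had none, and 32 hubs were linked to another hub. Irx3 and Irx5, 550 kb apart, were linked in MB, and 45 of the 80 partners of each (56.2%) were shared.

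Sequence and annotation around the hubs were not used by the rule. Hub bins had a median of 28.1 CpG dinucleotides per kb (quartiles 22.9 and 34.9) and 49.0% GC. The other promoter bins with interactions had 14.2 CpG per kb (10.5 and 18.6) and 46.3% GC. A median of 11 protein-coding gene starts lay within 1 Mb of a hub bin against 26 for the other bins, and the nearest one was 125 kb away against 26.1 kb. The quartiles of the nearest start did overlap, at 35.3 to 299.8 kb for the hubs and 12.5 to 57.2 kb for the others. Neighbouring bins share these values, so no test was made. The other bins had a median largest number of 2, and they can enter as the end of a pair without an H3K4me3 peak. Bins were not split by H3K4me3 peaks, so the part of such peaks in these values was not tested.

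Partner bins were compared between tissues at hubs with 30 or more interactions in both. In the 118 hubs with 30 or more interactions in both NT and LM, a median of 72.8% of the NT partners were also LM partners and 69.6% of the LM partners were also NT partners. The 109 hubs at 30 or more in FB at both E12.5 and P0 shared 72.5% and 67.6%. Between replicates of each tissue-stage other than LV, single libraries shared medians of 64.9% to 86.9% in hubs with 30 or more in both. The single libraries are shallower than the pools, so these shares are side by side and not a test.

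Mn1 and Wnt5a differed in this. Mn1 had 68 to 72 interactions in every tissue-stage but LV (17), and 64 of its partners were common to NT (70) and LM (68). Wnt5a shared 32 partners between its 38 in NT (84.2%) and its 86 in LM (37.2%). The NT partners of Wnt5a were thus mostly found in LM, which had further ones. Over the 12 lists a hub had a median of 66 distinct partner bins, with a median of 15 in 1 list, 20 in 6 or more, 3 in 11 or more and 0 in all 12. Sox11 had 167 distinct partners, 94 of them in 6 or more lists and 1 in all 12.

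Differences between tissues were measured on the single libraries. The number of interactions at each TSS bin was scaled to the median library total, 1 was added and the log2 value was fitted by limma over all 24 libraries, with Benjamini-Hochberg adjustment over 5316 TSS bins that had a mean scaled number of at least 1. All 424 hub bins passed that filter. The replicate lists come from the libraries that were pooled to choose the hubs, so the counts over hubs are a description beside the share of all tested bins. Hubs were chosen for high numbers, while the tested bins could have a mean scaled number as low as 1. A difference passes the threshold less easily at low numbers. A larger share called among hubs, in any of the contrasts, therefore cannot be read as a larger difference between tissues. Differences are in log2(scaled number + 1), with the SE of the fit. On data simulated from a negative binomial distribution, the model that edgeR fits, limma called too many unchanged bins in the liver and neural contrasts. Its counts and SEs there are therefore to be read with caution, and edgeR counts are given beside them. A hub could enter only through a tissue-stage where its number was high, so the differences of single hubs are also a description and no p is given for them.

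Between the 4 neural tissues and LM with CF at E12.5, 158 hubs had more interactions in neural tissue and 127 fewer, at an adjusted p under 0.05 (limma). Among all tested bins 20.4% were higher and 12.3% lower. edgeR's quasi-likelihood test with TMM called 143 hubs higher and 102 lower, against 11.6% and 5.89% of all bins, and 137 and 102 hubs were called by both tests. Without scaling 191 were higher and 86 lower, against 25.2% and 4.82% of all bins.

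Tmem178b, a transmembrane protein gene, had 19 and 25 interactions in the FB replicates, 32 and 33 in MB, 43 and 31 in HB and 42 and 31 in NT, and it had 0 in both LM and both CF libraries (difference 5.12 ± 0.17). Pou3f2, a neural POU factor, had 15 to 34 in the 8 neural libraries and 0, 0, 1 and 0 in LM and CF (4.51 ± 0.22). Sez6l, a neuronal receptor-like gene, had 10 to 31 and 0 in all 4. The groups did not overlap at any of these 3 hubs. On scaled numbers, 53 of the 424 hubs and 219 of the 5316 tested bins were higher in neural tissue without overlap. For bins lower in neural tissue these counts were 62 and 237. The other 5 of the 8 largest were Igsf21, Grik3, Tmem132e, Rbfox3 and Ajap1, at 3.49 to 3.81.

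Prrx1, a homeobox gene of limb and craniofacial mesenchyme, had 30 and 36 interactions in LM, 17 and 22 in CF and 0 in all 8 neural libraries (difference -5.28 ± 0.24). Snai2, a driver of epithelial-mesenchymal transition, had 34 and 33 in LM, 9 and 10 in CF and at most 2 in the neural libraries (-4.42 ± 0.33). Twist1, another mesenchymal regulator, had 9 and 25 in LM and 9 and 15 in CF against 0 to 2. LM and CF overlapped at Twist1 but both stood above the neural libraries. Bambi, Pcdh18, Rasl11b, Ntf3 and Gja1 made up the 8, at -3.80 to -3.35.

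LV stood apart from the other 6 tissues at E12.5. Of the hubs, 302 were lower in LV and 32 higher (limma), where 29.3% of all tested bins were lower and 19.2% higher. edgeR called 237 lower and 14 higher, against 11.9% and 6.51% of all bins. Without scaling 334 were lower and 10 higher, against 28.4% and 5.15% of all bins. The count of higher hubs was not stable, with 16 without the second LV library. The median log2 difference was -1.84 over the hubs and -0.34 over all tested bins, on libraries scaled to equal totals.

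Sox11 had 0 interactions in both LV libraries and 22 to 75 in the 12 libraries of the other tissues (difference -5.87 ± 0.20). Id4, an inhibitor of neural differentiation, also had 0 and 0, and 4 to 48 elsewhere. The other 6 of the 8 lowest in LV were Zfhx3, Sall1, Ebf3, Setbp1, Jarid2 and Ntn1, at -4.86 to -4.56. A difference from libraries at 0 depends on the added 1 and is not a fold change.

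On the higher side, the second Klf3 bin had 31 and 22 in LV and 1 to 18 elsewhere (3.40 ± 0.26). Myc had 41 and 49 in LV and 3 to 25 in the others (3.01 ± 0.43). Runx1 had 37 and 39 in LV, 27 and 36 in CF, 10 and 28 in LM and 6 to 21 in the neural libraries (2.07 ± 0.25). Klf3, Myc and Runx1 had non-overlapping values between LV and the rest even before scaling. On scaled numbers, 14 of the 424 hubs and 693 of the 5316 tested bins were higher in LV without overlap. For bins lower in LV these counts were 148 and 405. The remaining 5 of the 8 were Pcdh7, Zeb2, Chst11, Asb4 and Map3k1, at 1.93 to 3.10, of which Pcdh7 and Asb4 overlapped between LV and the rest on scaled numbers. Before scaling Zeb2 also overlapped (12 and 6 in LV, 0 to 8 elsewhere) and Map3k1 tied at 17 with an LM library.

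In FB over development, libraries of E16.5 and P0 were compared with those of E12.5 and E13.5. On scaled numbers 65 hubs were higher late and 88 lower (limma), where 7.52% of all tested bins were higher and 6.09% lower. edgeR called 92 higher and 57 lower, against 7.62% and 2.33% of all bins. This balance rests on the scaling. Without it 220 hubs were higher and 16 lower, against 36.9% and 1.13% of all bins, and the median difference over all tested bins moved from 0.02 to 0.72. The late libraries had 35291 to 63868 interactions and the early ones 16075 to 30876. In the pooled lists, which have equal numbers of read pairs, the median of the hubs was 21 in FB at E12.5 and 31 at P0. The values below are relative to the library totals.

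Arpp21, a neuronal phosphoprotein gene, had 0 and 0 interactions in FB at E12.5, 5 and 3 at E13.5, 37 and 44 at E16.5 and 56 and 46 at P0 (difference 3.72 ± 0.37). Its hub bin passed 30 in the pooled lists between E14.5 (15) and E15.5 (57). Csmd2, a synaptic gene, had 0, 0, 5 and 6 in the early libraries and 22, 44, 52 and 46 in the late ones (3.32 ± 0.30). Grin2b, an NMDA receptor subunit gene, had 0, 0, 3 and 1 early and 15, 20, 20 and 22 late. The early and late libraries did not overlap at these hubs before or after scaling. On scaled numbers, 58 of the 424 hubs and 389 of the 5316 tested bins were higher late without overlap. For bins lower late these counts were 81 and 510. St6galnac5, Pcsk2, Plekha5, Atp1b1 and Smarca2 were the others of the 8, at 2.77 to 3.27.

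The second Tbx3 bin had 13, 11, 18 and 17 interactions in the early libraries and 0, 0, 2 and 1 in the late ones (-3.77 ± 0.25). The adjacent Tbx3 bin had 14, 11, 18 and 16 early and 20, 11, 28 and 18 late. Hoxb4 had 15, 11, 24 and 23 early and 5, 1, 12 and 8 late (-2.38 ± 0.25). Hmga2, a chromatin protein of fetal progenitors, had 22, 13, 14 and 14 early and 10, 10, 3 and 1 late (-2.27 ± 0.26). Hoxb2, Bcas3, Hoxd3, the bin shared by Bcl11a and A830031A19Rik, and Pax6, a gene of cortical progenitors, had differences of -2.42 to -1.75. At Tbx3 and Hoxb4 the unscaled numbers did not overlap except that Hoxb4 reached 12 late against 11 early.

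**Figure D4:**
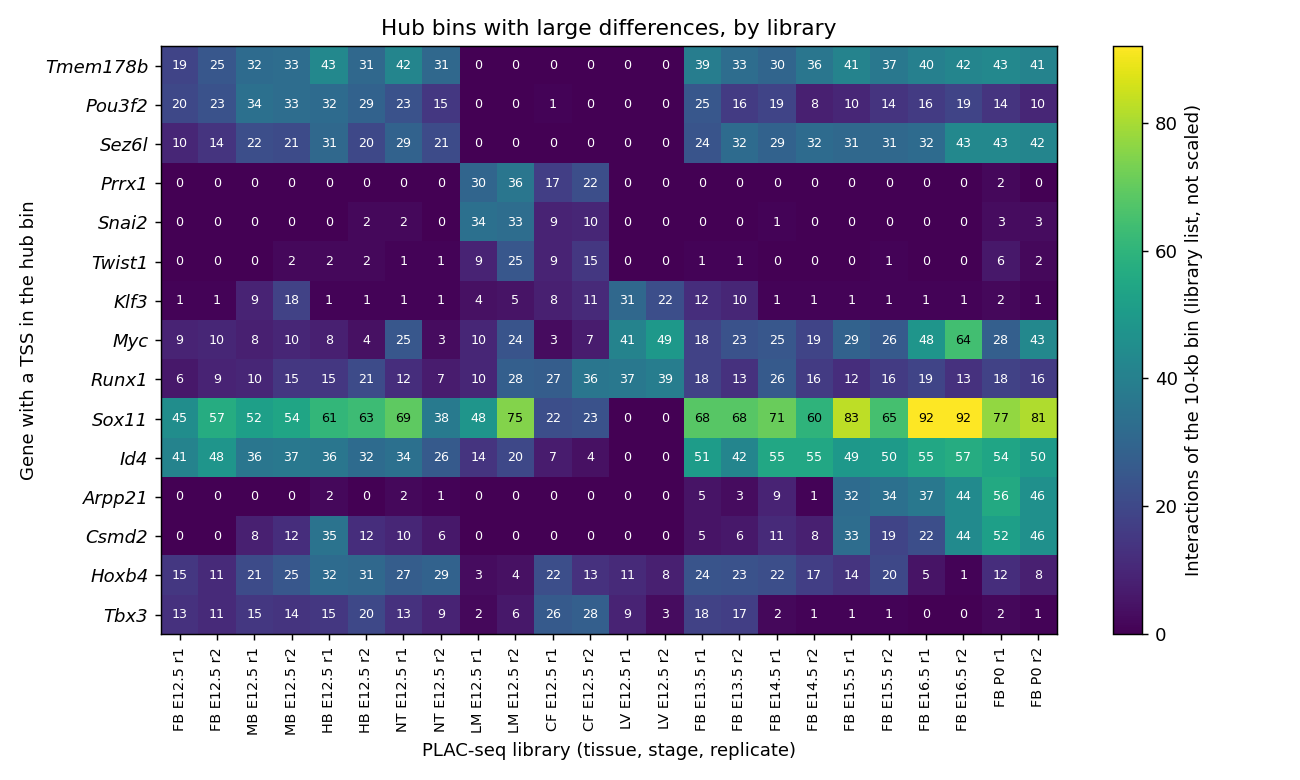
Number of interactions, not scaled, of 15 hub bins (rows, by gene) in each of the 24 libraries (columns, with r1 and r2 the replicates). For Klf3 and Tbx3 the second of 2 hub bins is shown. Prrx1 has 17 to 36 interactions in LM and CF and 0 in the neural libraries at E12.5, and Arpp21 has 32 to 56 from E15.5 on in FB.

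CTCF was measured by another assay, which the rule did not use. In each tissue-stage the number of CTCF peaks with a motif was averaged over hub bins and over other promoter bins that had at least 1 interaction there. Hub bins held 1.38 ± 0.182 peaks (mean ± SD, n = 12 tissue-stages) and other promoter bins 0.725 ± 0.0739. The difference was 0.655 ± 0.141 and was above 0 in 12 of 12 tissue-stages (exact two-sided sign-flip test, p = 0.000488, the smallest that 12 values allow). A CTCF peak was present in 78.2% of hub bins and 51.4% of the others, and 3 or more were present in 14.9% and 3.87%. The 12 tissue-stages share the same bins and 6 of them are FB, so they are not fully independent. This holds for each sign-flip test below as well.

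The size of this difference depended on the bins used for comparison. Against other promoter bins with 10 or more interactions in that tissue-stage, a comparison chosen after seeing the data, it was 0.192 ± 0.179 and above 0 in 11 of 12 (exact sign-flip test, p = 0.00635). Liver was the exception, with 1.04 peaks per hub bin against 1.38. Hub bins needed only 1 interaction in that tissue-stage, here and in the later comparisons with such bins, so the sides had unlike thresholds. In LV 294 hub bins entered, and the median number over all 424 hubs was 2 there. The part of this in the liver value was not tested. Without liver it was 0.240 ± 0.0662 (11 of 11, exact sign-flip test, p = 0.000977).

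At the level of single hubs, 243 had a CTCF peak in all 12 lists, 140 in some and 41 in none. Fgfr2, a fibroblast growth factor receptor gene, and Mrm1, which encodes a mitochondrial rRNA methyltransferase, had the most, with 2 to 6 and 3 to 6 peaks over the lists. Meis1 and the first Npas3 bin were among the hubs without any, although Meis1 had 71 interactions and Npas3 73, both in NT.

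The partners showed the reverse. Of the partner bins of a hub, 28.8% ± 2.99 held a CTCF peak (mean ± SD, n = 12 tissue-stages), and of those of other promoter bins 59.2% ± 3.30. The difference was -30.4 ± 2.92 percentage points, lower in 12 of 12 tissue-stages (exact sign-flip test, p = 0.000488). The number of partners is the denominator of this share, and it also chose the hubs. Other promoter bins had a median of 2 interactions in each tissue-stage. The difference is therefore not independent of the rule, and the part of partner number in it was not tested. Against promoter bins with 10 or more interactions it was -14.2 ± 3.09 points (12 of 12, exact sign-flip test, p = 0.000488). With each run of adjacent partner bins taken as one unit, 49.1% of the runs of hubs and 69.2% of those of other bins held CTCF (-20.1 ± 2.20 points, 12 of 12, exact sign-flip test, p = 0.000488). The bins at the same distance on the opposite side of the promoter held CTCF in 19.3% for hubs and 28.5% for the others. Partners of hubs lay farther away and in longer runs, as given above. They also held a protein-coding TSS less often. The mean share over the 12 tissue-stages was 9.94% for partners of hubs and 53.1% for those of other promoter bins. The part of these traits in the difference was not tested beyond the unit of runs.

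The orientation of the motif was compared with the side of the partners. In hub bins with forward motifs only (79 to 111 bins per tissue-stage), 70.5% ± 3.89 of partners lay at higher coordinates (SD, n = 12 tissue-stages). In hub bins with reverse motifs only (90 to 129) it was 30.5% ± 3.30, and in hub bins without CTCF 53.1% ± 2.58. The contrast between forward and reverse was 39.9 ± 6.77 points, above 0 in 12 of 12 (exact sign-flip test, p = 0.000488). Other promoter bins had 65.5% and 35.5%. Their contrast was smaller by 9.89 ± 4.12 points (12 of 12, exact sign-flip test, p = 0.000488). Against other promoter bins with 10 or more interactions the difference was 1.95 ± 7.04 points (above 0 in 7 of 12, exact sign-flip test, p = 0.354), with values from -6.40 to 14.8 in single tissue-stages and no call.

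**Figure D5:**
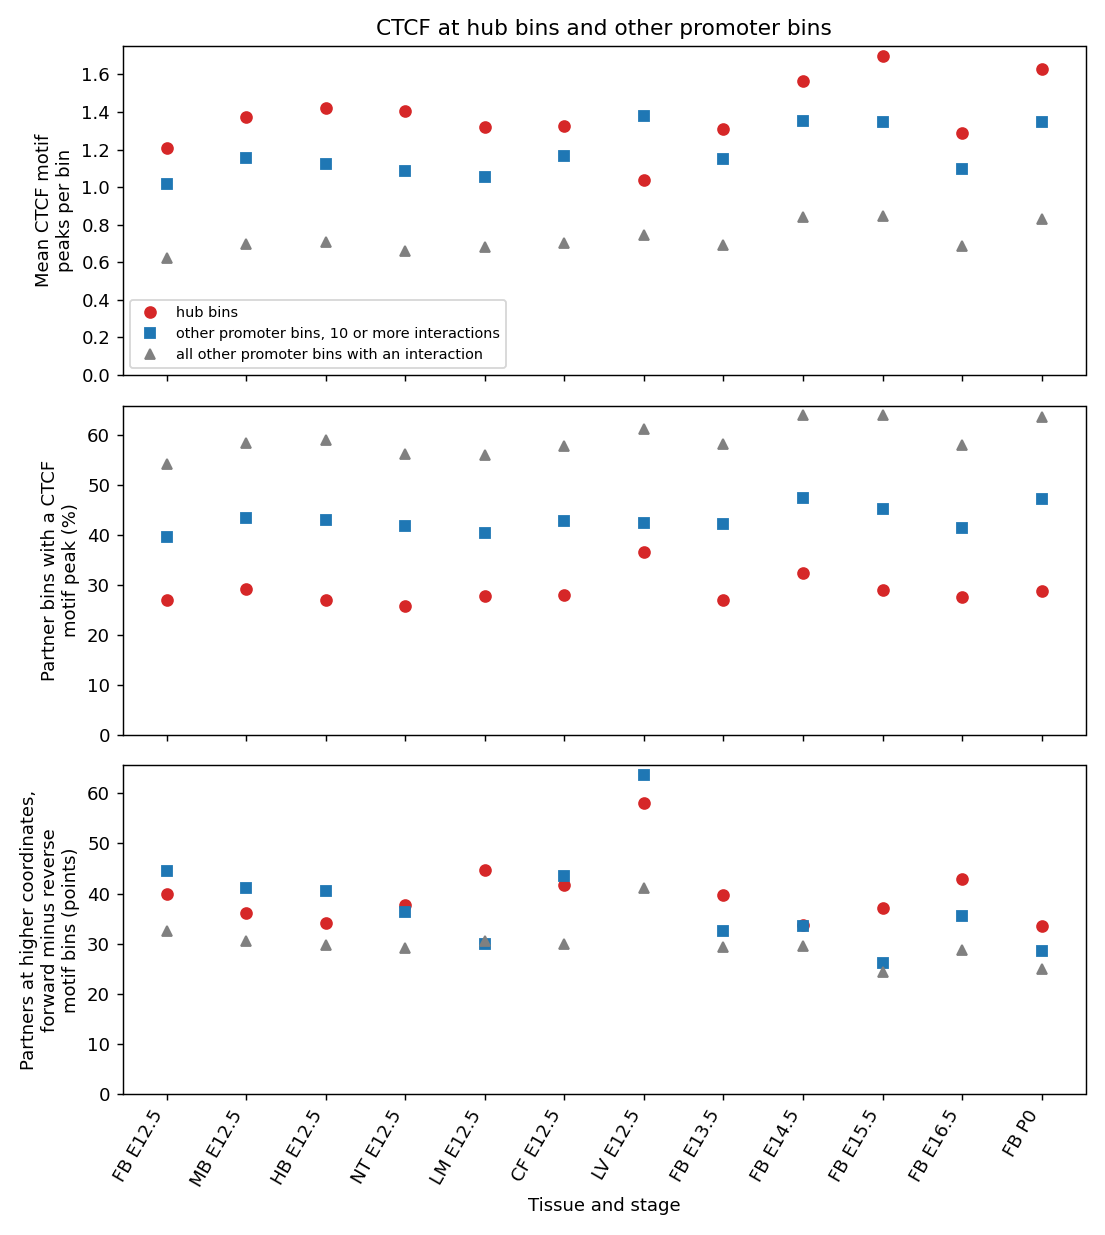
Values per tissue and stage (x axis) for hub bins (circles), other promoter bins with 10 or more interactions (squares) and all other promoter bins with an interaction (triangles): mean CTCF motif peaks per bin (top), percentage of partner bins with a CTCF motif peak (middle), and the percentage of partners at higher coordinates in forward-motif bins minus that in reverse-motif bins (bottom). Hub partners are below both comparison groups for CTCF in all 12 tissue-stages, and hub bins are above both for CTCF peaks in 11, with liver the exception. Hub bins needed only 1 interaction in the tissue-stage.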

How the data were processed

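Per the labels and the study's methods, the authors mapped H3K4me3 PLAC-seq reads to mm10 with BWA and called interactions with MAPS between 10-kb bins 20 kb to 1 Mb apart, on autosomes, at an FDR under 1% and an observed over expected ratio of at least 2. The submitters' processing notes also name SAMtools, Juicer and MACS2 (versions not given in the sources used here). The deposited lists give for each bin pair the read count and its FDR (an adjusted p-value). The deposited lists also hold a signal column, the read pairs predicted by the regression of the authors. The number of interactions of a bin is the number of pairs in the list that include it. The pooled list of each tissue-stage was made by the authors from libraries downsampled to the same number of read pairs. The deposited CTCF peak lists give fold enrichment (a ratio) and −log10 p from MACS2, and for LV and E14.5 FB the CTCF libraries were technical replicates, while P0 FB had 1 CTCF library.

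TSSs were those of all transcripts of protein-coding genes in GENCODE vM21 on mm10/GRCm38, whose autosome lengths held all calls. One of the 2 deposited CTCF lists per tissue-stage was used, and the second was an alternative. A 19-base motif matrix was estimated from 5000 peaks of E12.5 FB with a match threshold of 0.0001 per position, and 87.7% to 94.2% of peaks held a match. Sites were cut from the GRCm38 genome.

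Libraries held 11396 to 63868 interactions. Numbers per TSS bin were fitted with limma 3.58.1 (trend) and, as alternatives, edgeR 4.0.16 and DESeq2 1.42.0 in R 4.3.3. On data simulated with the real library totals, the limma fit called too many unchanged bins in the liver and neural contrasts and edgeR did not. The edgeR counts therefore stand beside those of limma. The simulated numbers were drawn independently from a negative binomial distribution, which is the model that edgeR fits. The simulation therefore cannot show how many unchanged bins edgeR calls on the real numbers of interactions. Differences over tissue-stages were tested by exact sign-flip. Replicate numbers did not pair the samples. Hubs, gene lists and comparisons were chosen with earlier results of these data known. Named hubs were the 20 with the largest numbers, the first 3 of each tissue-stage, up to 8 per direction of each contrast, up to 5 per gene list, examples at 30 and 29, and the extremes of runs, CTCF peaks and distance. H3K4me3 peak lists were not used here.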

Additional observations from a re-analysis of the deposited data

How the results depend on the processing

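The number of hub bins was 347 with gene starts only and 414 with protein-coding transcripts only, 610 at a threshold of 25 and 239 at 40, and 2 when a run of adjacent partner bins was counted as 1 partner. The CTCF results kept their direction and their side of the threshold in every alternative run, with the exception of the difference in motif direction against bins with 10 or more interactions, which was 1.95 points. Without scaling to library totals, the hubs called higher were 10 in liver and 220 in late FB, and those called lower in late FB were 16. edgeR called 14 and DESeq2 12 hubs higher in liver, and edgeR called 57 and DESeq2 47 lower in late FB. The cause of these shifts was not tested beyond the scaling itself. The other counts stayed within 1.5 times the main one.

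Leaving out each library of a contrast in turn gave 139 to 158 higher and 116 to 133 lower hubs for neural tissue, 16 to 35 and 258 to 305 for liver, and 49 to 63 and 60 to 77 for late FB. With the replicate block, the counts were 157 and 127 for neural tissue, 32 and 302 for liver, and 65 and 88 for late FB. Same-numbered libraries did not deviate together: their correlations over 5316 bins lay between -0.07 and 0.04 at E12.5 (21 pairs) and between -0.04 and 0.08 over FB stages (15 pairs), so the numbers do not pair the samples. Of the named hubs, Chst11 in liver lost its call without scaling (difference 1.32 against 2.07). The 2 replicates per tissue-stage, the unequal library totals and the 10-kb bins limit precision.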
